A study of Mus musculus with 9 samples.

Results

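The voltage-gated potassium, sodium and HCN channel genes, with the related inward rectifier, tandem-pore and calcium-activated potassium channel genes and their auxiliary subunits, were followed in sorted mouse olfactory sensory neurons. Members were taken by gene symbol: every symbol that starts with Kcn apart from Kcnq1ot1, and the numbered Scn alpha and beta and Hcn genes. This gave 116 of the 55291 genes of the deposited table, namely 98 Kcn, 14 Scn and 4 Hcn genes, among them 4 antisense transcripts. RNA came from neurons of mice that carry 1 of the alleles Olfr160-IRES-mCherry, Olfr73-IRES-GFP and Olfr1507-IRES-GFP, in which a fluorescent protein is made from the transcript of 1 odorant receptor gene. Each genotype gave 3 libraries, 9 in all. Cells were dissociated from the main olfactory epithelium with papain and sorted for strong GFP or mCherry fluorescence and weak DAPI stain. The reporter is mCherry in the Olfr160 group and GFP in the other groups, so reporter and receptor cannot be told apart in a comparison with Olfr160. The labels give neither age nor sex. They also leave unsaid if replicates stem from different mice, and p-values then cover only the scatter among these 9 samples, which may be technical.

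An olfactory neuron turns odorant binding into current through a cyclic-nucleotide-gated channel and a calcium-activated chloride channel in its cilia, and the channels described here turn that current into spikes in the axon. Sodium channel alpha subunits carry the upstroke of the spike and beta subunits adjust their gating. Voltage-gated potassium channels repolarise the cell, HCN channels open on hyperpolarisation, and inward rectifier and tandem-pore potassium channels hold the resting potential in neurons and in epithelial support cells alike.

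The libraries held 17212807 to 36230606 expected counts. Each tagged receptor was high in its own libraries, with 16020 to 20818 counts for Olfr73, 55243 to 81313 for Olfr1507 and 3131 to 16531 for Olfr160, against at most 53, 2121 and 119 counts in any other library. Neuron and support cell markers differed between the groups. Genes of the sustentacular and gland list, the support cells and secretory glands of the epithelium, took 2.53% to 5.41% of the counts in the Olfr160 libraries, 0.419% to 0.774% in Olfr73 and 0.0297% to 0.0636% in Olfr1507. The mature olfactory neuron list took 2.82% to 4.41%, 4.96% to 5.12% and 7.65% to 7.93% in the same order. Respiratory epithelium genes took 0.546% to 1.47%, 0.157% to 0.295% and 0.0475% to 0.0618%, and immune genes took 0.0296% to 0.0889%, 0.00834% to 0.012% and 0.000209% to 0.000523%. The respiratory share in Olfr160 was mostly Bpifa1, and the list was mixed. By the test described below, 8 of its 13 genes were higher in Olfr160 than in Olfr1507 and 4 were lower. None of the 24 sustentacular and gland genes was at 0 in any group, and 4 of 15 immune genes were at 0 in all Olfr1507 libraries. The part of this shift in the differences given below was not tested, and in bulk RNA fewer cells of a type and less RNA per cell cannot be told apart.

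By the authors' TPM, a level per transcript length and library, 22 members had a mean of at least 10, 49 a mean of at least 1 and 67 a mean below 1. The 5 highest members took 57.8% to 72.5% of the summed TPM of all members in a library. They were Scn3b, Kcnab2, Kcna5, Kcnmb3 and Scn9a. Scn3b, a sodium channel beta subunit, stood at 443 ± 131 TPM in Olfr160, 813 ± 168 in Olfr73 and 334 ± 20.9 in Olfr1507 (SD, n = 3 in each). Kcnab2, a cytoplasmic beta subunit of Kcna channels, stood at 258 ± 64.8, 459 ± 41.2 and 429 ± 48.8 TPM, and Kcna5, a delayed rectifier, at 210 ± 40.7, 298 ± 19.6 and 559 ± 28.5 TPM. Kcna5 was therefore the highest member in the Olfr1507 libraries, whereas Scn3b led in each of the other 6. Kcnmb3, a beta subunit of the BK channel, had 330 ± 112 TPM in Olfr160 and 540 ± 166 in Olfr73 but 33.3 ± 34.6 in Olfr1507. Scn9a, the leading sodium channel alpha subunit, had 172 ± 23.6, 362 ± 20.7 and 257 ± 15.8 TPM.

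**Figure D1:**
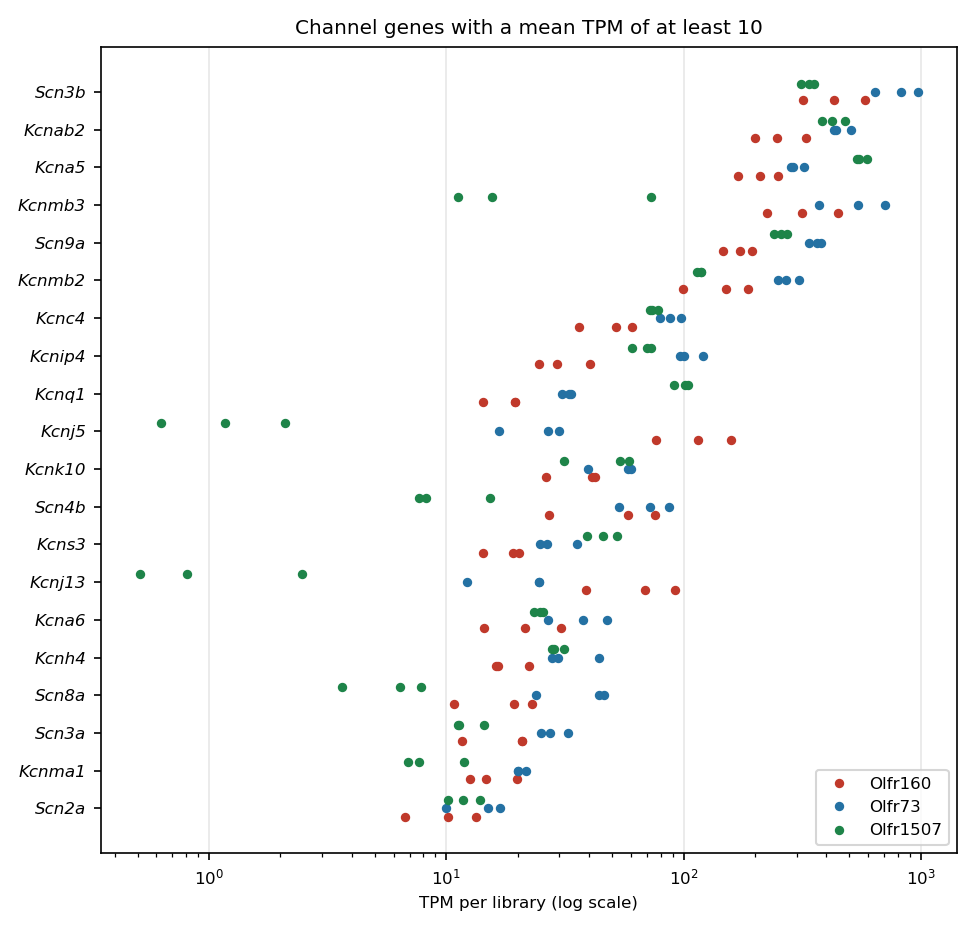
Authors' TPM per library, on a log axis, for 20 of the 22 members with a mean of at least 10, ordered by that mean; each point is 1 library and colours mark the 3 groups. The Olfr1507 points of Kcnmb3 (11.2 to 73.1 TPM), Kcnj5 (0.63 to 2.1) and Kcnj13 (0.51 to 2.46) lie far to the left of those of the other groups, and those of Kcna5 and Kcnq1 to the right.

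Differences were tested with edgeR's quasi-likelihood F test on the expected counts of all genes, and called at a Benjamini-Hochberg adjusted p below 0.05 over the 16399 genes that passed a filter on low counts. Of the 116 members 68 passed the filter, 55 Kcn, 9 Scn and 4 Hcn genes. A gene near 0 in a group can pass only through the other groups, and its direction there is then set by the filter. Counts per library are given as normalised CPM (nCPM), read counts relative to the library size after TMM scaling, a method that sets most genes equal between libraries. Between Olfr1507 and Olfr160, 46 of the 68 were called, 19 higher in Olfr1507 and 27 higher in Olfr160, where 48.4% of all genes tested were called, 20.7% higher in Olfr1507 and 27.7% higher in Olfr160. Between Olfr1507 and Olfr73, 32 were called, 5 higher in Olfr1507 and 27 higher in Olfr73, against 34.4% of all genes, 14.5% and 19.9% by direction. Between Olfr73 and Olfr160, 25 were called, 19 higher in Olfr73 and 6 higher in Olfr160, against 17.9% of all genes, 7.45% and 10.5% by direction. Over the 3 groups together 48 members were called, against 50.8% of all genes. The median log2 difference of the 68 members was -0.18 for Olfr1507 over Olfr160. It was -0.88 against Olfr73, and 0.44 when Olfr73 was set over Olfr160, beside -0.14, -0.15 and -0.01 over all genes tested. The 3 comparisons share groups, so their counts are not independent of each other.

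How many members are called higher depended on the scaling. When libraries were scaled to the summed counts of 18 olfactory transduction genes, the median of all genes moved to -1.72, -1.04 and -0.70 for the 3 comparisons in the same order, and when they were scaled by total counts alone it moved to -0.56, -0.47 and -0.12. Members called higher and lower in Olfr1507 than in Olfr160 then numbered 1 and 49 with the transduction genes, and 11 and 31 with total counts. Of all genes tested, 85.4% and 46.3% were called in either direction with these scalings. For Olfr1507 against Olfr73 the split was 2 and 43, and 5 and 32, beside 58.4% and 35.0% of all genes called. For Olfr73 against Olfr160 it was 3 and 11, and 16 and 6, beside 30.9% and 17.1% of all genes called. All 27 members called lower in Olfr1507 than in Olfr160, and all 27 called lower than in Olfr73, kept their direction and their call with the transduction genes. However, all 18 transduction genes were themselves called higher in Olfr1507 than in Olfr160, and 10 of them higher than in Olfr73. Scaling to them lowers most genes in Olfr1507, so these lower calls could hardly be lost and their keeping is no check. Of the 19 called higher in Olfr1507 than in Olfr160, 11 turned to lower and 8 stayed higher, 1 of them, Kcnq1, still called. Directions below are on the TMM scale, and "transduction scaling" names the alternative where it turns one.

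**Figure D2:**
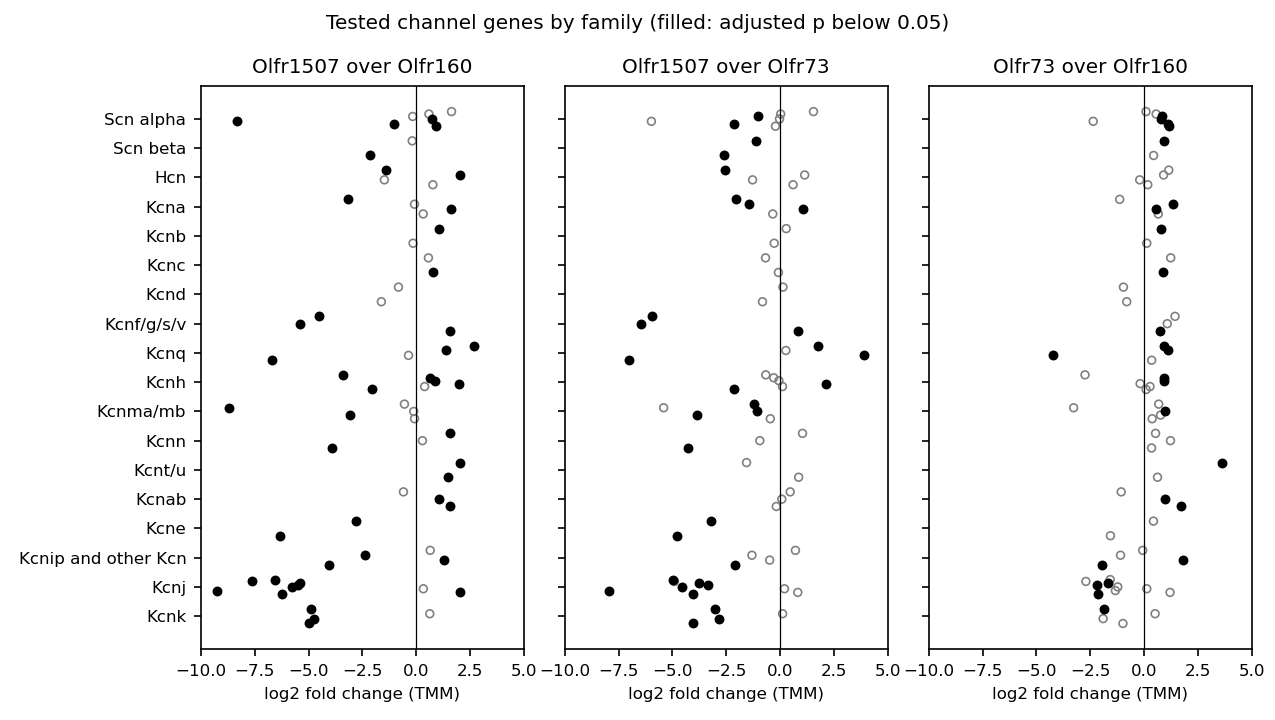
Log2 differences on the TMM scale of the 68 tested members, in rows by family, for the 3 comparisons; filled points have an adjusted p below 0.05 and open points do not. The Kcnj and Kcnk rows lie mostly at negative values for Olfr1507, 7 of 9 and 3 of 4 genes called lower than in Olfr160, against 27.7% of all genes tested. Genes at 0 in Olfr1507 passed the low-count filter only through other groups, which sets their direction. Most called members of the voltage-gated families lie within a few log2 units of 0 on both sides.

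The sodium channel alpha subunits were led by Scn9a (chr2:66480080-66634962 in mm10, minus strand), known from pain-sensing and olfactory neurons. It held 74.0% to 86.2% of the summed TPM of the 10 Scn alpha genes in every library. Its nCPM were 617, 650 and 811 in the Olfr160 libraries 1 to 3, 1551, 1457 and 1592 in Olfr73, and 1331, 1426 and 1201 in Olfr1507. No library of one group overlapped another group, with Olfr160 lowest and Olfr73 highest. The log2 difference was 1.15 (SE 0.13, adjusted p = 0.00234) for Olfr73 over Olfr160 and 0.93 (SE 0.13, adjusted p = 0.000467) for Olfr1507 over Olfr160, the latter turning to -0.62 with transduction scaling. Between Olfr1507 and Olfr73 it was -0.22 (SE 0.13, adjusted p = 0.215).

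Scn8a, an alpha subunit known from the axon initial segment and nodes, went the other way in Olfr1507. Its nCPM were 43.4, 23.7 and 37.1 in Olfr160, 48.2, 81.7 and 96.5 in Olfr73 and 11.3, 20.8 and 19.6 in Olfr1507, where all 3 libraries lay below every library of the other groups. The log2 difference for Olfr1507 was -2.13 (SE 0.33, adjusted p = 0.00167) against Olfr73 and -1.01 (SE 0.33, adjusted p = 0.03) against Olfr160. The second call ended without Olfr1507 library 1 or 3 or Olfr160 library 1 or 3 (adjusted p 0.0549 to 0.0992). Olfr73 over Olfr160 gave 1.12 (SE 0.32, adjusted p = 0.0425), a call that ended without any of 7 libraries (adjusted p 0.0533 to 0.144): all but Olfr73 library 1 and Olfr1507 library 1. As a share of Scn alpha TPM, which does not depend on library scaling, Scn8a took 5.42% to 10.3% in Olfr160, 5.40% to 9.88% in Olfr73 and 1.21% to 2.48% in Olfr1507.

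Scn3a, an alpha subunit best known from the embryonic brain, was highest in Olfr73, with 72.3, 94.3 and 83.7 nCPM against 34.4, 48.2 and 56.8 in Olfr160 and 33.2, 38.7 and 52.5 in Olfr1507. The Olfr73 libraries did not overlap the others, and the other groups overlapped each other. Olfr1507 over Olfr73 gave a log2 difference of -1.01 (SE 0.22, adjusted p = 0.00785), and Olfr73 over Olfr160 gave 0.84 (SE 0.22, adjusted p = 0.0299), the latter ending without Olfr73 library 2 or 3 or Olfr160 library 1 or 2 (adjusted p 0.0638 to 0.0903). Scn2a, an alpha subunit of central axons, had 15.2 ± 5.79, 22.4 ± 4.39 and 22.8 ± 2.54 nCPM in Olfr160, Olfr73 and Olfr1507, and no comparison passed the threshold. Scn11a had at most 1.12 nCPM in all 9 libraries and was not called. Scn7a had 126 counts over the Olfr160 libraries, 23 over Olfr73 and 0 over Olfr1507. Scn7a was thus at least 41.2-fold higher in Olfr160 than in Olfr1507, with 3 counts over the group as the floor (adjusted p = 0.0128). It passed the filter only through the other groups, so this direction was set by the filter. Its Olfr160 libraries were uneven, with a log2 ratio of library 1 over library 3 of -2.9. Scn1a had 18 counts, all in Olfr160, Scn4a had 2 counts in all, and Scn10a had 0.

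The beta subunits were led by Scn3b, with 88.0% to 97.6% of Scn beta TPM. Scn3b had 660, 928 and 1219 nCPM in Olfr160, 1353, 2144 and 1818 in Olfr73 and 812, 772 and 884 in Olfr1507. The Olfr73 libraries lay above all others, and Olfr1507 lay within the range of Olfr160. The log2 difference was -1.11 (SE 0.23, adjusted p = 0.00627) for Olfr1507 over Olfr73 and 0.92 (SE 0.23, adjusted p = 0.026) for Olfr73 over Olfr160, the latter ending without Olfr73 library 2 or 3 or Olfr160 library 1 or 2 (adjusted p 0.0589 to 0.0909). Scn4b (chr9:45138395-45154152 in mm10, plus strand), the beta subunit linked to resurgent sodium current, had 76.5, 164 and 211 nCPM in Olfr160, 152, 251 and 212 in Olfr73 and 25.9, 25 and 50.1 in Olfr1507. Every Olfr1507 library lay below every other library. Scn4b fell by 2.16 on the log2 scale against Olfr160 (SE 0.40, adjusted p = 0.00222) and by 2.61 against Olfr73 (SE 0.41, adjusted p = 0.00159), and its share of Scn beta TPM was 7.85% to 11.9%, 7.75% to 8.20% and 2.38% to 4.17% in Olfr160, Olfr73 and Olfr1507. Scn2b did not pass the filter, with 47 counts over the 9 libraries.

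Among the 4 HCN genes Hcn4, the slow, pacemaker-type member, was highest in TPM in every library, with 53.0% to 83.7% of the family sum. Hcn4 had 6.01, 10.4 and 13.95 nCPM in Olfr160, 9.24, 13.7 and 11.4 in Olfr73 and 22.4, 13.8 and 15.8 in Olfr1507, and no comparison was called (adjusted p = 0.0726 for Olfr1507 over Olfr160). Hcn2 had at most 1.67 nCPM in every library; its call for Olfr1507 over Olfr160 (log2 difference 2.05, SE 0.72, adjusted p = 0.041) ended without any 1 of the 6 libraries compared (adjusted p 0.0536 to 0.124). Hcn3, also low, was not called, and 17.1% of its exonic bases overlap Pklr on the opposite strand.

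The delayed rectifier Kcna5 (chr6:126532551-126535412 in mm10, minus strand) held 85.4% to 95.8% of the TPM of the 8 Kcna genes in every library. Its nCPM were 250, 312 and 365 in Olfr160, 422, 488 and 445 in Olfr73 and 906, 1010 and 920 in Olfr1507. The groups did not overlap and rose from Olfr160 over Olfr73 to Olfr1507. Kcna5 rose by 1.61 in Olfr1507 over Olfr160 (SE 0.14, adjusted p = 4.23e-05) and by 1.07 over Olfr73 (SE 0.14, adjusted p = 0.000729) on the log2 scale. Transduction scaling left 0.08 and 0.18, neither called. The step of 0.55 (SE 0.14, adjusted p = 0.0286) from Olfr160 to Olfr73 turned to -0.10 with that scaling and ended without Olfr73 library 2 or 3 or Olfr160 library 1 or 2 (adjusted p 0.0551 to 0.0956).

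Kcna2, an axonal Kcna subunit, was highest in Olfr73, with 29.9, 30.0 and 38.8 nCPM against 9.91, 14.1 and 14.8 in Olfr160 and 10.4, 10.7 and 15.7 in Olfr1507. The log2 difference was 1.34 (SE 0.23, adjusted p = 0.00674) for Olfr73 over Olfr160 and -1.43 (SE 0.23, adjusted p = 0.0019) for Olfr1507 over Olfr73, and both calls held in each fit without 1 library. Kcna1, its close relative, was low everywhere, with 3.67 ± 1.31 nCPM in Olfr160, 1.68 ± 0.73 in Olfr73 and 0.407 ± 0.193 in Olfr1507 (SD, n = 3 in each). It fell by 3.18 in Olfr1507 against Olfr160 (SE 0.63, adjusted p = 0.00299) and by 2.05 against Olfr73 (SE 0.61, adjusted p = 0.0282), the second call ending without Olfr73 library 1 or 2, Olfr1507 library 1 or 2 or Olfr160 library 2 (adjusted p 0.0518 to 0.0969). Kcna6 had 59.1 ± 20.9, 93.6 ± 24.0 and 73.9 ± 5.50 nCPM and was not called; 39.6% of its exonic bases overlap the antisense gene Gm26673, which had at most 12 counts in a group.

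Kcnab2 made up 98.9% to 99.5% of the TPM of the 3 Kcnab beta subunits. It had 335, 369 and 536 nCPM in Olfr160, 751, 919 and 787 in Olfr73 and 932, 785 and 877 in Olfr1507. Olfr160 lay below both other groups, which overlapped each other. The log2 difference was 0.99 (SE 0.18, adjusted p = 0.00833) for Olfr73 over Olfr160 and 1.06 (SE 0.18, adjusted p = 0.0013) for Olfr1507 over Olfr160, the latter turning to -0.45 with transduction scaling.

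Kcnc4, a voltage-gated channel of the shaw type, held 99.0% to 99.9% of the TPM of the Kcnc genes. It had 71.5, 102 and 118 nCPM in Olfr160, 157, 177 and 201 in Olfr73 and 159, 178 and 168 in Olfr1507. The Olfr160 libraries lay below the rest, and the other groups overlapped. Kcnc4 rose by 0.88 in Olfr73 (SE 0.17, adjusted p = 0.0113) and by 0.80 in Olfr1507 (SE 0.17, adjusted p = 0.00515) over Olfr160, the latter -0.72 with transduction scaling. Kcnb2, Kcnd1 and Kcnd2 had means of at most 3.26 nCPM in a group and no calls, and Kcnd3 did not pass the filter, with 59 of its 66 counts in Olfr73.

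The transient-current channels of the Kcnd family were thus low, while Kcnip4, a calcium-binding partner of those channels, was among the 12 highest members by TPM. Kcnip4 had 26.9, 32.4 and 43.7 nCPM in Olfr160, 110, 109 and 139 in Olfr73 and 89.6, 77.0 and 89.0 in Olfr1507. The 3 groups did not overlap. The log2 difference was 1.80 (SE 0.18, adjusted p = 0.00166) for Olfr73 over Olfr160, which stayed called at 1.17 with transduction scaling, and 1.31 (SE 0.18, adjusted p = 0.000468) for Olfr1507 over Olfr160, which turned to -0.20. Olfr1507 over Olfr73 gave -0.49 (SE 0.18, adjusted p = 0.0608).

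Kcns3, Kcng1 and Kcnf1 encode electrically silent subunits that form channels only with Kcnb subunits, and they differed in opposite directions. Kcns3 had 16.4, 23.0 and 21.8 nCPM in Olfr160, 30.4, 41.7 and 29.8 in Olfr73 and 67.0, 60.0 and 51.8 in Olfr1507, with no overlap between groups. It rose by 1.55 in Olfr1507 over Olfr160 (SE 0.19, adjusted p = 0.000242) and by 0.81 over Olfr73 (SE 0.19, adjusted p = 0.00995); transduction scaling left 0.01 and -0.07. Kcng1 had 5.87, 10.8 and 17.5 nCPM in Olfr160, 10.9, 39.2 and 22.3 in Olfr73 and 0.485, 0.132 and 0.223 in Olfr1507. The Olfr1507 values were below all others, and the ranges of the other groups overlapped. Kcng1 fell by 5.40 against Olfr160 (SE 0.70, adjusted p = 0.000331) and by 6.48 against Olfr73 (SE 0.72, adjusted p = 0.000297). Kcnf1 had 3.80, 4.08 and 5.91 nCPM in Olfr160, 4.44, 22.6 and 10.4 in Olfr73 and 0.593, 0.033 and 0 in Olfr1507, with log2 differences of -4.52 (SE 1.05, adjusted p = 0.00683) and -5.96 (SE 1.09, adjusted p = 0.00346) for Olfr1507 over Olfr160 and Olfr73. The size of these Kcnf1 differences rested on single libraries: without Olfr1507 library 1 they were fitted at -7.48 and -8.91, without Olfr1507 library 2 at -3.91 and -5.35, and without Olfr73 library 2 the second was -5.17, while both calls held in each of the 9 fits. For Kcng1 the values without Olfr1507 library 1 were -6.02 and -7.10. In shares of the summed TPM of the Kcnf, Kcng, Kcns and Kcnv genes, Kcns3 took 99.3% to 99.8% in Olfr1507 but 57.6% to 80.4% in the other libraries.

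Kcnq1 (chr7:143106362-143427042 in mm10, plus strand), a slow delayed rectifier that pairs with Kcne subunits, differed in all 3 comparisons. Its nCPM were 22.6, 30.1 and 29.9 in Olfr160, 50.2, 50.2 and 55.4 in Olfr73 and 182, 183 and 164 in Olfr1507. Olfr1507 stood far above both other groups and Olfr73 above Olfr160, without overlap. The log2 difference was 2.68 (SE 0.13, adjusted p = 6.02e-06) for Olfr1507 over Olfr160 and 1.77 (SE 0.13, adjusted p = 3.82e-05) over Olfr73. Olfr73 exceeded Olfr160 by 0.92 (SE 0.13, adjusted p = 0.00349). The first and second stayed called at 1.14 and 0.88 with transduction scaling, and all 3 calls held in each fit without 1 library. The antisense gene Kcnq1ot1, which shares 2.96% of the exonic bases of Kcnq1, had 4526, 5441 and 2144 counts over the Olfr160, Olfr73 and Olfr1507 libraries. These counts are not scaled by library, and a relation to Kcnq1 was not tested.

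Kcnq3, a subunit of the M current, stayed at or below 1.42 nCPM and had calls of 3.88 for Olfr1507 over Olfr73 (adjusted p = 0.035) and -4.23 for Olfr73 over Olfr160 (adjusted p = 0.0422), each ending in all fits without 1 library but that without Olfr73 library 2 (adjusted p 0.0518 to 0.133). Without that library the fitted Kcnq3 values were 7.09 and -7.46, and without Olfr1507 library 2 the first was 3.00.

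The ether-a-go-go family split between its members. Kcnh4, with the largest share of family TPM in every library (51.0% to 67.1%), had 37.2 ± 6.76, 70.7 ± 19.6 and 67.9 ± 5.19 nCPM in Olfr160, Olfr73 and Olfr1507. It rose by 0.93 in Olfr73 over Olfr160 (SE 0.20, adjusted p = 0.0158), ending without Olfr160 library 1 or 2 (adjusted p = 0.0567 and 0.0709), and by 0.87 in Olfr1507 over Olfr160 (SE 0.20, adjusted p = 0.00676), which turned to -0.67 with transduction scaling. Kcnh6, a subunit of the erg subfamily, had 2.21, 2.06 and 3.15 nCPM in Olfr160, 1.85, 2.11 and 2.61 in Olfr73 and 8.41, 9.47 and 11.3 in Olfr1507. Only the Olfr1507 libraries stood apart, by 2.15 over Olfr73 (SE 0.32, adjusted p = 0.00124), still called at 1.27 with transduction scaling, and by 1.97 over Olfr160 (SE 0.32, adjusted p = 0.00103), which became 0.44 and was no longer called. Kcnh8, an elk-type member, had 10.5, 8.52 and 9.33 nCPM in Olfr160, 6.29, 10.4 and 13.7 in Olfr73 and 2.64, 1.85 and 2.40 in Olfr1507. It fell in Olfr1507 by 2.04 against Olfr160 (SE 0.33, adjusted p = 0.00102) and by 2.14 against Olfr73 (SE 0.33, adjusted p = 0.00145). In shares of Kcnh TPM, Kcnh6 took 2.16% to 4.44% in the Olfr160 and Olfr73 libraries and 9.79% to 11.6% in Olfr1507, and Kcnh8 took 5.51% to 14.1% and 1.47% to 2.26%.

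Kcnma1, the pore of the calcium- and voltage-activated BK channel, and 2 of its 4 beta subunits were well expressed. Kcnma1 had 48.0, 60.1 and 83.5 nCPM in Olfr160, 98.1, 94.1 and 115 in Olfr73 and 35.5, 42.3 and 53.3 in Olfr1507, so that Olfr73 was highest and the other groups overlapped. It fell by 1.23 in Olfr1507 against Olfr73 (SE 0.22, adjusted p = 0.00293); the other comparisons gave adjusted p = 0.0602 and 0.056. Kcnmb2, an inactivating beta subunit, had 131, 199 and 243 nCPM in Olfr160, 330, 369 and 421 in Olfr73 and 174, 174 and 181 in Olfr1507. It was higher in Olfr73 than in Olfr160 by 0.97 (SE 0.20, adjusted p = 0.0123) and lower in Olfr1507 than in Olfr73, a log2 difference of -1.08 (SE 0.20, adjusted p = 0.00338). Kcnmb3 (chr3:32471588-32492231 in mm10, minus strand) had 171, 240 and 333 nCPM in Olfr160, 282, 553 and 431 in Olfr73 and 9.38, 13.6 and 64.0 in Olfr1507. Library 3 of Olfr1507 was well above its fellows and still below every library of the other groups. Kcnmb3 fell by 3.10 against Olfr160 (SE 0.67, adjusted p = 0.00473) and by 3.87 against Olfr73 (SE 0.69, adjusted p = 0.00306), and both calls held in each fit without 1 library, at -4.41 and -5.18 without Olfr1507 library 3. As a share of the TPM of the BK genes, Kcnmb3 took 58.0% to 70.7% in the Olfr160 and Olfr73 libraries and 8.13%, 11.2% and 36.0% in Olfr1507, while Kcnmb2 took 27.2% to 38.7% and 86.2%, 81.8% and 58.0%. Kcnmb1, the smooth muscle beta subunit, had 147 counts over Olfr160 and 0 over Olfr1507, at least 48.1-fold higher. This call (adjusted p = 0.0273) ended without any Olfr1507 library or Olfr160 library 1 (adjusted p 0.0602 to 0.0761). Kcnmb1 too passed the filter only through the other groups, which set the direction.

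**Figure D3:**
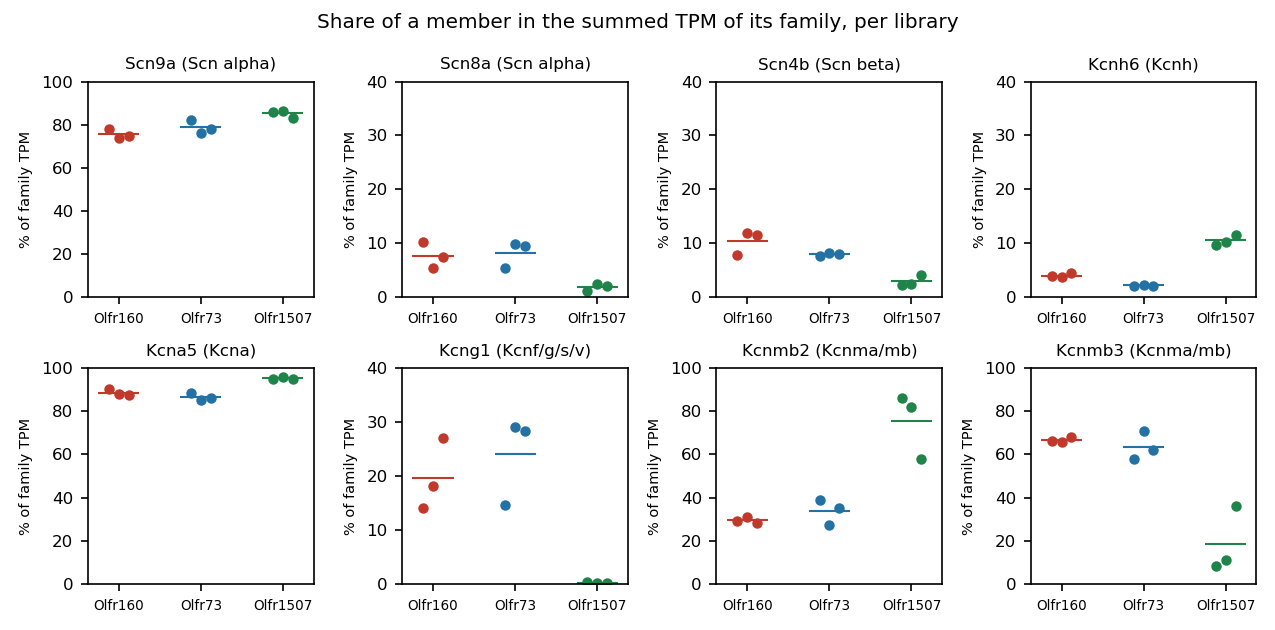
Share of 8 members in the summed TPM of their family, in percent, per library; points are libraries, short lines are group means, and the vertical axis runs to 40% or to 100%. In Olfr1507 Scn8a (1.21% to 2.48%) and Kcng1 (0.153% to 0.358%) lie below all other libraries, Kcnh6 (9.79% to 11.6%) lies above them, and Kcnmb2 takes the place of Kcnmb3 as the leading BK gene.

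The small-conductance calcium-activated channels were low. Kcnn1 had 4.89 ± 2.82, 7.10 ± 3.67 and 14.6 ± 5.02 nCPM in Olfr160, Olfr73 and Olfr1507; its call for Olfr1507 over Olfr160 (log2 difference 1.57, SE 0.51, adjusted p = 0.0306) ended without Olfr1507 library 1 or 2 or Olfr160 library 1 or 2 (adjusted p 0.0646 to 0.104). Kcnn3 had 1.41 ± 0.43, 1.80 ± 0.60 and 0.0869 ± 0.0815 nCPM, and was lower in Olfr1507, with log2 differences of -3.91 (SE 0.89, adjusted p = 0.00595) against Olfr160 and -4.26 (SE 0.89, adjusted p = 0.0064) against Olfr73 that became -4.51 and -4.86 without Olfr1507 library 1. Kcnn2 was not called. Kcnt1, a sodium-activated channel, had 0.577, 0.687 and 0.355 nCPM in Olfr160, 6.55, 2.34 and 11.03 in Olfr73 and 1.35, 2.44 and 2.96 in Olfr1507, with Olfr160 below all others and Olfr73 the most scattered. It rose by 3.61 in Olfr73 over Olfr160 (SE 0.65, adjusted p = 0.00813), still called at 2.90 with transduction scaling, and by 2.05 in Olfr1507 over Olfr160 (SE 0.62, adjusted p = 0.0221), a call that ended without Olfr1507 library 2 or 3 or Olfr160 library 1 or 3 (adjusted p 0.0538 to 0.0685).

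The inward rectifiers were mostly lower in Olfr1507. Of the 9 Kcnj genes tested 7 were called lower in Olfr1507 than in Olfr160 and 6 lower than in Olfr73, against 27.7% and 19.9% of all genes tested. Members at 0 in Olfr1507, such as Kcnj3, passed the filter only through other groups, so the filter set their direction. The summed TPM of all 15 Kcnj genes was 161 to 323 in Olfr160, 46.6 to 79.4 in Olfr73 and 7.13 to 10.4 in Olfr1507. Most of the Olfr160 sum came from Kcnj5, with 47.7% to 50.2%, and Kcnj13, with 24.0% to 30.1%. Kcnj5 (chr9:32314707-32344350 in mm10, minus strand), a G-protein-gated subunit, had 360, 265 and 176 nCPM in Olfr160, 71.0, 66.8 and 41.0 in Olfr73 and 1.73, 5.57 and 3.12 in Olfr1507. The groups stood apart in steps, and within Olfr160 library 1 was highest and library 3 lowest. Kcnj5 fell by 6.22 in Olfr1507 against Olfr160 (SE 0.47, adjusted p = 2.16e-05), by 4.05 against Olfr73 (SE 0.43, adjusted p = 0.000245) and by 2.16 from Olfr160 to Olfr73 (SE 0.38, adjusted p = 0.0077). Kcnj3, its partner in the heart and brain, had 235 counts over Olfr160, 90 over Olfr73 and 0 over Olfr1507, at least 76.9-fold and 30.5-fold higher than the floor of 3 counts (adjusted p = 0.000503 and 0.00184). The antisense gene Gm26794 overlaps 31.1% of the exonic bases of Kcnj3.

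Kcnj13, Kcnj1, Kcnj15 and Kcnj16, known from transporting epithelia, followed the same order. Kcnj13 had 44.0, 32.8 and 17.9 nCPM in Olfr160, 11.7, 12.3 and 6.19 in Olfr73 and 0.270, 1.35 and 0.446 in Olfr1507. It fell by 5.41 in Olfr1507 against Olfr160 (SE 0.61, adjusted p = 0.000147) and by 3.76 against Olfr73 (SE 0.58, adjusted p = 0.00148). Gigyf2 on the opposite strand covers 49.1% of its exonic bases, and since it is not stated whether the counting used strand, reads from the 2 genes may not be told apart; Gigyf2 had 5413, 6534 and 6412 counts over the Olfr160, Olfr73 and Olfr1507 libraries. Kcnj1 had 41.4, 23.3 and 18.5 nCPM in Olfr160, 5.89, 10.99 and 11.2 in Olfr73 and 0, 0.561 and 0.223 in Olfr1507. Kcnj15 had 36.9, 36.6 and 31.0, then 8.40, 9.21 and 5.45, then 0.863, 1.29 and 0 nCPM in the same order of groups. Both genes kept the 3 groups apart, with Olfr160 highest. Kcnj16 had 51.8, 18.6 and 20.5, then 9.77, 21.9 and 7.26, then 1.02, 0.495 and 0.112 nCPM, and its Olfr73 and Olfr160 libraries overlapped. The log2 differences for Olfr1507 over Olfr160 were -6.54 for Kcnj1 (SE 0.73, adjusted p = 0.000146), -5.51 for Kcnj15 (SE 0.71, adjusted p = 0.000311) and -5.79 for Kcnj16 (SE 0.76, adjusted p = 0.000339). Leaving out 1 library moved the size of these differences but ended none of these calls: without Olfr1507 library 2 it was -7.90 for Kcnj1, -6.29 for Kcnj15 and -6.44 for Kcnj13 against Olfr160 and -4.78 for Kcnj13 against Olfr73. For Kcnj16 it was -6.47 without Olfr1507 library 1 and -5.16 without Olfr160 library 1. Kcnj13 and Kcnj15 were also called lower in Olfr73 than in Olfr160, by -1.65 (SE 0.50, adjusted p = 0.0479) and -2.18 (SE 0.59, adjusted p = 0.0341). The Kcnj13 call ended without any Olfr73 library, Olfr1507 library 3 or Olfr160 library 1 or 2 (adjusted p 0.0621 to 0.168), and the Kcnj15 call without any 1 of the 6 libraries compared (adjusted p 0.0588 to 0.113). Kcnj4 and Kcnj2 did not share the order: Kcnj4 had 0.859 ± 0.303, 2.00 ± 0.49 and 3.55 ± 0.72 nCPM in Olfr160, Olfr73 and Olfr1507 (log2 difference 2.04 for Olfr1507 over Olfr160, SE 0.48, adjusted p = 0.00718), and Kcnj2 was not called.

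Among the tandem-pore channels, Kcnk1, Kcnk2 and Kcnk5 were lower in Olfr1507 and Kcnk10 was not called. Kcnk1 had 27.1, 26.8 and 17.6 nCPM in Olfr160, 9.94, 5.71 and 3.77 in Olfr73 and 0.863, 1.15 and 0.279 in Olfr1507, 3 separate steps. It fell by 4.91 in Olfr1507 against Olfr160 (SE 0.54, adjusted p = 0.000132) and by 3.03 against Olfr73 (SE 0.51, adjusted p = 0.00234). From Olfr160 to Olfr73 it fell by 1.88 (SE 0.46, adjusted p = 0.0243), not past the threshold without Olfr73 library 2 or 3 or Olfr160 library 1 or 2 (adjusted p 0.058 to 0.0883). Kcnk2, a mechanically gated channel, had 14.7, 8.16 and 6.22 nCPM in Olfr160, 2.90, 2.67 and 2.19 in Olfr73 and 0, 0.627 and 0.390 in Olfr1507. It fell by 4.75 in Olfr1507 against Olfr160 (SE 0.85, adjusted p = 0.00184) and by 2.85 against Olfr73 (SE 0.80, adjusted p = 0.0231), the second call ending without Olfr1507 library 3 (adjusted p = 0.0659). Without Olfr1507 library 2 the Kcnk2 differences were -5.59 and -3.69. Kcnk10, of the same subfamily, had 29.9, 45.7 and 44.7 nCPM in Olfr160, 67.5, 59.9 and 44.5 in Olfr73 and 73.3, 71.4 and 41.4 in Olfr1507, and the groups overlapped throughout. Its share of the TPM of the 14 Kcnk genes was 38.7% to 61.9% in Olfr160, 82.0% to 87.9% in Olfr73 and 93.7% to 98.6% in Olfr1507, since the other members were lower there.

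These genes moved beside the support cell markers, and also beside markers of several other cell types. Of the 23 sustentacular and gland genes tested, 22 were called higher in Olfr160 than in Olfr1507 and 18 higher in Olfr73 than in Olfr1507. Of the respiratory epithelium genes 8 of 13 were higher in Olfr160 than in Olfr1507 and 4 lower, and of microvillar and brush genes 10 of 12 and 1. All tested basal and progenitor (8), immune (12), red blood cell (6) and glia, stroma and vessel (12) genes were higher in Olfr160. Of the 9 immature neuron genes tested, 4 were higher in Olfr160 than in Olfr1507 and 2 lower. Cyp2g1, a cytochrome of sustentacular cells, had 5278, 4570 and 3167 nCPM in Olfr160, 1226, 1049 and 816 in Olfr73 and 37.7, 98.9 and 53.3 in Olfr1507. Within Olfr160, whose 3 libraries share 1 genotype, the log2 ratio of library 1 over library 3 had a median of 0.81 over the sustentacular and gland list, -0.93 over the mature neuron list and 0.05 over all genes. The median was 0.75 over the respiratory epithelium list, 0.93 over microvillar and brush, 0.75 over basal and progenitor and 0.76 over immune genes. Red blood cell genes gave 1.42, glia, stroma and vessel genes 0.46, and immature neuron genes -0.105. For single channel genes the ratio was 1.04 for Kcnj5, 1.29 for Kcnj13, 1.16 for Kcnj1, 1.33 for Kcnj16, 1.23 for Kcnk2 and 0.62 for Kcnk1. Of the other genes lower in Olfr1507, Kcnk5 had 0.41, Kcnj15 0.25, Kcnj3 -0.12 and Kcnj10 -0.36. Kcnj4, higher in Olfr1507 than in Olfr160, had 0.68, and the uncalled Kcnj2 and Kcnk10 had -0.68 and -0.58. The same ratio was -0.39 for Scn9a, -0.55 for Kcna5, -0.89 for Scn3b, -0.96 for Kcnmb3 and -1.56 for Kcng1, but 0.57 for Kcnt1, 0.23 for Scn8a and 0.08 for Hcn2. With Olfr160 represented by library 3 alone, the log2 differences for Olfr1507 were -5.61 for Kcnj5, -4.63 for Kcnj13 and -4.49 for Kcnk1. Library 3 itself had Cyp2g1 far above every Olfr1507 library, so this fit cannot tell neurons from support cells. How much of these differences lies in other cells was not tested.

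**Figure D4:**
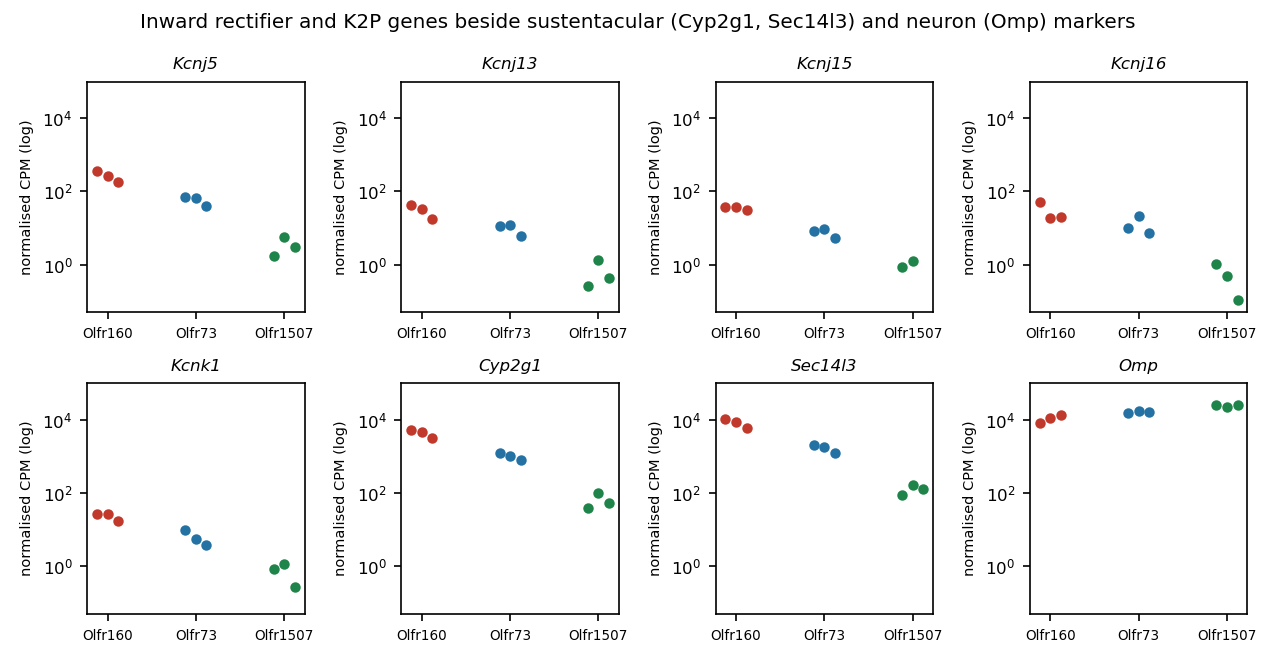
Normalised CPM (nCPM) on a log axis, per library and group, for 5 inward rectifier and tandem-pore channel genes, 2 sustentacular markers and the neuron marker Omp; points are libraries, and Olfr1507 library 3 of Kcnj15 is at 0 and not drawn. The channel genes and Cyp2g1 and Sec14l3 step down from Olfr160 over Olfr73 to Olfr1507, and Omp runs from 8335 to 13250 in Olfr160 up to 22310 to 24880 in Olfr1507.

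The Kcne beta subunits and the remaining regulators were low. Kcne2 had 1.74 ± 0.54, 2.35 ± 0.51 and 0.255 ± 0.262 nCPM in Olfr160, Olfr73 and Olfr1507 (SD, n = 3 in each). It fell by 3.22 in Olfr1507 against Olfr73 (SE 0.76, adjusted p = 0.0113) and by 2.78 against Olfr160 (SE 0.76, adjusted p = 0.0139), the second call ending without Olfr1507 library 1 or 2 (adjusted p = 0.0518 and 0.0517). Without Olfr1507 library 3 the Kcne2 differences were -4.44 and -4.00. Kcnrg, a soluble protein that interferes with potassium channel assembly, had 17.6, 5.05 and 5.06 nCPM in Olfr160, 1.19, 2.85 and 3.17 in Olfr73 and 0.539, 0.561 and 0.558 in Olfr1507. Library 1 of Olfr160 stood far above the other libraries of its group. Kcnrg fell by 4.05 in Olfr1507 against Olfr160 (SE 0.65, adjusted p = 0.00101), and by 3.18 without Olfr160 library 1.

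Of the 48 members that did not pass the filter, 16 had 0 counts in every library, among them Kcng3, Kcng4, Kcnv1, Kcnv2, Kcnip1, Kcnj6, Kcnj12 and Kcne1. The other 32 had at most 66 counts in all. A count of 0 allows up to 3 counts, or 0.099 to 0.167 nCPM by library, for counting error only, so expression of these genes below that level was not detectable.

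RefSeq upstream windows of 250 bases (build GRCm38.p6) were found for 83 of the 116 members, of which 17 have more than 1 RefSeq start and so up to 4 windows. They are shown for 3 genes with 1 window each that stand for the different orders of the groups: Scn9a, lowest in Olfr160; Kcna5, highest in Olfr1507; and Kcnj13, highest in Olfr160. All 3 lie on the minus strand and are printed 5′ to 3′ up to the base before the RefSeq start, with no base in an annotated exon. Capitals mark TATAAA, which of these windows only that of Kcnj13 holds, starting 29 bases before the start.
Scn9a, chr2:66634963-66635212: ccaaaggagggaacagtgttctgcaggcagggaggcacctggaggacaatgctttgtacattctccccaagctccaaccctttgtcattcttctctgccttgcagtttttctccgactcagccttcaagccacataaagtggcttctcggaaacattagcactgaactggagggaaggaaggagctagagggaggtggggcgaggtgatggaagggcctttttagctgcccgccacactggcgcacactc
Kcna5, chr6:126535556-126535805: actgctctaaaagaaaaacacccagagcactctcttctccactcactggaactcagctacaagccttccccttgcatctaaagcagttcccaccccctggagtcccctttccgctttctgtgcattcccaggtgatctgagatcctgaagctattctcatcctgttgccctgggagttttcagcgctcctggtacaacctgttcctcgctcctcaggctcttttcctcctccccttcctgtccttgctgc
Kcnj13, chr1:87394730-87394979: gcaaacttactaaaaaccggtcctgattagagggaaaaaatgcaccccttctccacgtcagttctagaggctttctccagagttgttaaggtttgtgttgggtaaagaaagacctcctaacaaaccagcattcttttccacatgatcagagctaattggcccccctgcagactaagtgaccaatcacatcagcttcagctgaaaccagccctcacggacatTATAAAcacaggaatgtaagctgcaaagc
A gene was counted for a motif when any of its windows held it. Searched on both strands, TATAAA was in 4 of the 83 members (4.82%), against 14.3% of the 27025 genes with a window. The core CCCNNGGG of the Ebf factors, which reads the same on both strands, was in 16 of 83 (19.3%) against 13.4%, and the homeodomain core TAATTA in 0 of 83 against 5.65%. More than 1 window was held by 20.5% of these members and 15.4% of all genes, and counted by window the shares for members and all genes were 3.64% and 12.4% for TATAAA, 14.5% and 11.8% for CCCNNGGG and 0 and 4.84% for TAATTA. These shares describe letters in the windows and no binding was measured.

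Beside the members, 27 partners of these channels and 34 other excitability genes were counted. Of all genes tested, 48.4% were called between Olfr1507 and Olfr160, 34.4% between Olfr1507 and Olfr73 and 17.9% between Olfr73 and Olfr160. Neither list was tested against these shares. Of the partners 22 were tested, with 8 higher and 5 lower in Olfr1507 than in Olfr160, 3 and 3 against Olfr73, and 3 higher and 2 lower in Olfr73 than in Olfr160. Their median log2 differences were 0.07, -0.10 and 0.41. Lrrc26, a BK channel auxiliary protein of secretory epithelia, had 19.5 ± 7.48, 3.22 ± 0.98 and 0.379 ± 0.192 nCPM in Olfr160, Olfr73 and Olfr1507 and fell by 5.63 in Olfr1507 against Olfr160 (SE 0.52, adjusted p = 4.95e-05). Fgf12, an intracellular sodium channel modulator, had 13.4 ± 4.42, 19.2 ± 3.39 and 41.5 ± 9.24 nCPM, a log2 difference of 1.11 for Olfr1507 over Olfr73 (SE 0.27, adjusted p = 0.0115). Of the other excitability genes 29 were tested, with 8 higher and 9 lower in Olfr1507 than in Olfr160, 5 and 9 against Olfr73, and 7 higher and 1 lower in Olfr73 than in Olfr160, with medians of -0.03, -0.66 and 0.39. Cacna1b, the N-type calcium channel pore, had 26.7 ± 2.25, 56.0 ± 8.63 and 87.0 ± 13.8 nCPM, and Cacnb3, a calcium channel beta subunit, had 418 ± 141, 724 ± 51.4 and 1426 ± 28.7. They rose by 1.70 (SE 0.16, adjusted p = 5.78e-05) and 1.77 (SE 0.21, adjusted p = 0.000185) in Olfr1507 over Olfr160. Ano6, a calcium-activated scramblase and channel, had 84.6 ± 4.92, 70.1 ± 3.25 and 15.6 ± 2.87 nCPM and fell by 2.44 (SE 0.14, adjusted p = 1.12e-05).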

How the data were processed

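Poly(A) RNA of sorted olfactory neurons was sequenced from low-input libraries, 3 for each of the 3 genotypes. Per the submitters' processing notes, the authors used STAR 2.6.1, RSEM 1.3.1 and DESeq2 on the mm10 build; the annotation release is not given in the sources used here. One deposited table holds RSEM expected counts per gene and library. The other deposited table holds TPM, a level that the authors' software corrects for transcript length. Table columns carry receptor synonyms and were matched to groups by them: M72 for Olfr160, MOR28 for Olfr1507 and MOR174 for Olfr73, the last by its family name only. The series' design text speaks of duplicates, whereas 3 libraries a group were analysed.

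Expected counts were rounded to whole numbers and fitted with edgeR 4.0.16 (R 4.3.3, limma 3.58.1): TMM scaling, the filterByExpr filter, a robust quasi-likelihood fit of all 9 libraries with 1 mean per group, and Benjamini-Hochberg adjustment over the 16399 genes tested at 0.05. Standard errors are the log2 difference divided by the square root of F. The nCPM are CPM of the TMM-scaled library size. The libraries held 17212807 to 36230606 counts, so that 3 counts equal 0.099 to 0.167 nCPM. Coordinates come from an mm10 annotation (GENCODE M21) that holds 484 of the 508 member transcripts. On simulated counts for Olfr1507 against Olfr160 (16399 genes, 200 changed) the fit recovered 29% of 2-fold and 54% of 4-fold changes, with 2 false calls among 85. In the data 48.4% of genes were called for this comparison, and the adjustment depends on that share. The simulated rates therefore may not hold for the data. Named genes were, per comparison, the 8 members with the largest called log2 difference among those of at least 5 nCPM where higher and with groups that do not overlap; the 12 members with the highest mean TPM; every Scn and Hcn gene; every tested Kcna, Kcnb, Kcnc, Kcnd, Kcnq, Kcnma, Kcnn and Kcnt gene; and up to 3 genes of a pathway list per comparison. Other genes named were chosen after their values were seen. Some members that the rule names are counted but not reported here. The members and lists were chosen with earlier results of these data known. Alternatives tried were DESeq2 1.42.0, other scalings, filters and thresholds, a replicate block, Olfr160 replicate 3 alone, and leaving out each library in turn.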

Additional observations from a re-analysis of the deposited data

How the results depend on the processing

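With the transduction scaling the median of all genes fell to -1.72, -1.04 and -0.70 for the 3 comparisons. Some genes listed here, such as Kcna6, Hcn4 and Scn2a, were not called on the TMM scale. The log2 differences of the following genes changed sign with that scaling. For Olfr1507 over Olfr160 they became -0.62 for Scn9a, -1.16 for Kcna6, -0.45 for Kcnab2, -0.90 for Kcnk10, -0.69 for Hcn4, -0.20 for Kcnip4, -0.67 for Kcnh4, -0.00326 for Kcnab3, -0.89 for Scn2a, -0.91 for Kcnh3, -1.21 for Kcnn2, -1.19 for Kcnj2, -0.72 for Kcnc4, -0.0295 for Kcnu1 and -1.16 for Kcnh7. For Olfr1507 over Olfr73 they became -0.072 for Kcns3, -0.81 for Kcnab2, -0.78 for Kcnk10, -0.86 for Scn2a and -0.77 for Kcnh7, and for Olfr73 over Olfr160 -0.10 for Kcna5. Olfr160 replicate 3 alone, which is assumed to vary like the other groups, gave a median log2 difference of -0.53 for Olfr1507 over Olfr160. For Olfr73 over Olfr160 the median of the members was 0.22, beside -0.08 and -0.01 over all genes tested. The 25 calls between Olfr73 and Olfr160 became 14 with transduction scaling, 7 at an adjusted p of 0.01 and 13 at a log2 difference of at least 1. Of all genes tested, 30.9%, 4.69% and 10.3% were called with these settings, against 17.9%. Leaving out 1 library gave 36 to 46 calls between Olfr1507 and Olfr160, 27 to 34 between Olfr1507 and Olfr73, 9 to 23 between Olfr73 and Olfr160 and 40 to 51 over the 3 groups. Between Olfr73 and Olfr160 it was 14 without Olfr73 library 2, 13 without Olfr73 library 3, 10 without Olfr160 library 1 and 9 without Olfr160 library 2. The shares of all genes called in these fits were 12.9%, 10.9%, 8.37% and 5.76%. DESeq2 called 47, 37, 30 and 51 members for the 3 comparisons and the 3 groups together, against 45.6%, 40.6%, 22.9% and 50.1% of all genes.

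The replicate numbers were not found to pair the libraries: the deviations of same-numbered libraries from their group means correlated at -0.225 to 0.141. With the replicate number as a block 43, 31 and 22 members were called in the 3 comparisons and 44 over the 3 groups. Of all genes tested 45.1%, 29.3%, 15.2% and 46.2% were called.

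With 3 libraries a group, small differences in low genes cannot be seen, and TPM shares rest on the authors' transcript lengths.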
